A study of Mus musculus with 12 samples.

Results

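The levels of 46 genes of the sarcomere and of muscle differentiation were followed in muscle stem cells (MuSCs) that were freshly isolated, cultured, or cultured and then compressed. The genes were chosen by name and matched exactly to the gene names of the count tables. All 46 were among the 55335 genes counted, and 45 of them had enough reads for a test, the exception being Tnnc2. The cells were sorted by fluorescence (FACS) from the hindlimb of Pax7-ZsGreen mice, a reporter strain in which green fluorescence marks cells that express Pax7. RNA was sequenced from 4 groups of 3 libraries each, all from this strain, and the labels name no other allele. F cells were lysed as they were sorted and had no time in culture. 2d-U and 5d-U cells were kept for 2 and 5 days, without compression, on plastic coated with Matrigel and fibronectin, in growth medium that was not replaced by a differentiation medium. 2+3d-C cells had 2 days of the same culture followed by 3 days under a film held up by low pillars. The gap under the film limits the height of the cells and so compresses them from above. The labels do not say that the libraries of a group came from separate mice, so p-values measure only the spread between these libraries. In RNA from many cells, fewer cells of a type and less RNA per cell cannot be told apart.

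The sarcomere is the contractile unit of striated muscle. Thick filaments of myosin slide along thin filaments of actin, on which troponin and tropomyosin switch contraction on with calcium, while titin, nebulin, the Z-disc and the M-band hold the lattice in place. Many of its proteins exist as isoforms from separate genes, and developing or regenerating muscle uses embryonic, neonatal and slow forms before adult fibres settle on fast or slow ones. Quiescent MuSCs lie on the fibre and have no sarcomeres, whereas their descendants start to make these RNAs when they leave the cell cycle and differentiate. The 46 genes were read in 5 classes: 13 adult fast isoforms, 4 embryonic and neonatal isoforms, 9 slow isoforms, 15 structural proteins shared by fibre types, and 5 genes for assembly factors, creatine kinase and desmin.

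Levels are given in RPKM, reads per kilobase of exon scaled to the depth of each library by TMM (an estimate that discounts genes taking a large share of one library), so that genes can be compared per length. A group difference was called at an adjusted p under 0.05 in edgeR's quasi-likelihood test, two-sided, with Benjamini-Hochberg adjustment over all 22635 genes tested. Fold changes are on the log2 scale and first group minus second, and where every library of a group had 3 or fewer reads the fold is given as a limit against 3 reads in each library. Reads were copied by PCR without molecular identifiers, so such a floor covers counting error only. Scaling by library size without TMM would have moved the median log2 fold change of all genes from -1.05 to -1.21 in 2+3d-C against 5d-U and from 1.13 to 0.648 in 5d-U against 2d-U, and the medians below are set beside that of all genes for this reason. No called member changed sign under this scaling or under the size factors of DESeq2. Between 12540745 and 62424851 reads per library fell on genes. On 1853 autosomal genes of families that are silent in muscle, such as olfactory receptors, F replicates 4 and 5 had 5.12 and 7.24 reads per kilobase, 5d-U replicates 1 and 6 had 3.84 and 0.641, and the other 8 libraries 0.00967 to 0.229. In 5d-U replicate 1, 25 of the 46 genes had more than 3 reads and lay within 3 times that density, among them Myh3 with 18 reads where 23.3 would be expected from it. This was so for 6 genes in F replicate 5, 3 in 5d-U replicate 6, 1 each in F replicates 1 and 4 (Ttn, a very long transcript), and none in the other 7 libraries. Markers of MuSCs were above 3 reads in all libraries (7 or 8 of 8 markers, with Pax7 in the list), at a summed 506 to 989 CPM (reads scaled to a common library depth) in the 5d-U libraries, 1136 to 1369 in the 2d-U libraries, 2609 to 6127 in the F libraries and 7333 to 10380 under compression. The single markers did not all follow the sums. In 2d-U against F and in 5d-U against F, 4 of the 8 had a positive log2 fold change and 4 a negative one. In 2+3d-C against 5d-U all 8 had a positive one.

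The 4 groups held these RNAs in different amounts, and libraries of the same group differed as well. Of the 46 genes, 22 had their highest level in a 5d-U library, 14 of these in replicate 6 and 7 in replicate 2, and 21 had it in F, 13 in replicate 4 and 8 in replicate 5. Mybpc1, Tpm3 and Des were highest in 2+3d-C, and none was highest in 2d-U. The tropomyosins, Des and Actn3 were above 5 RPKM in every library, and no other member was. Without them, the other 41 genes summed to 37.7, 1054 and 630 RPKM in F replicates 1, 4 and 5. They summed to 24.4, 28.8 and 20.5 in 2d-U replicates 1, 2 and 3, and to 43.9, 1381 and 3505 in 5d-U replicates 1, 2 and 6. In 2+3d-C replicates 4, 5 and 10 the sum was 65.2, 138 and 74.8. In this sum the F and 5d-U groups thus each held 1 library at the level of the 2d-U or 2+3d-C libraries and a pair far above it. All 46 genes summed to 524, 1596 and 1091 RPKM in the F libraries and 608, 552 and 516.5 in those of 2d-U. They summed to 573, 2578 and 4763 in those of 5d-U and 802, 1056 and 800 in those of 2+3d-C. With all genes in the sum, F replicate 5 was thus near 2+3d-C replicate 5. In every list of values that follows, the libraries are given in ascending replicate number, F replicates 1, 4 and 5, 2d-U replicates 1, 2 and 3, 5d-U replicates 1, 2 and 6, and 2+3d-C replicates 4, 5 and 10.

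**Figure D1:**
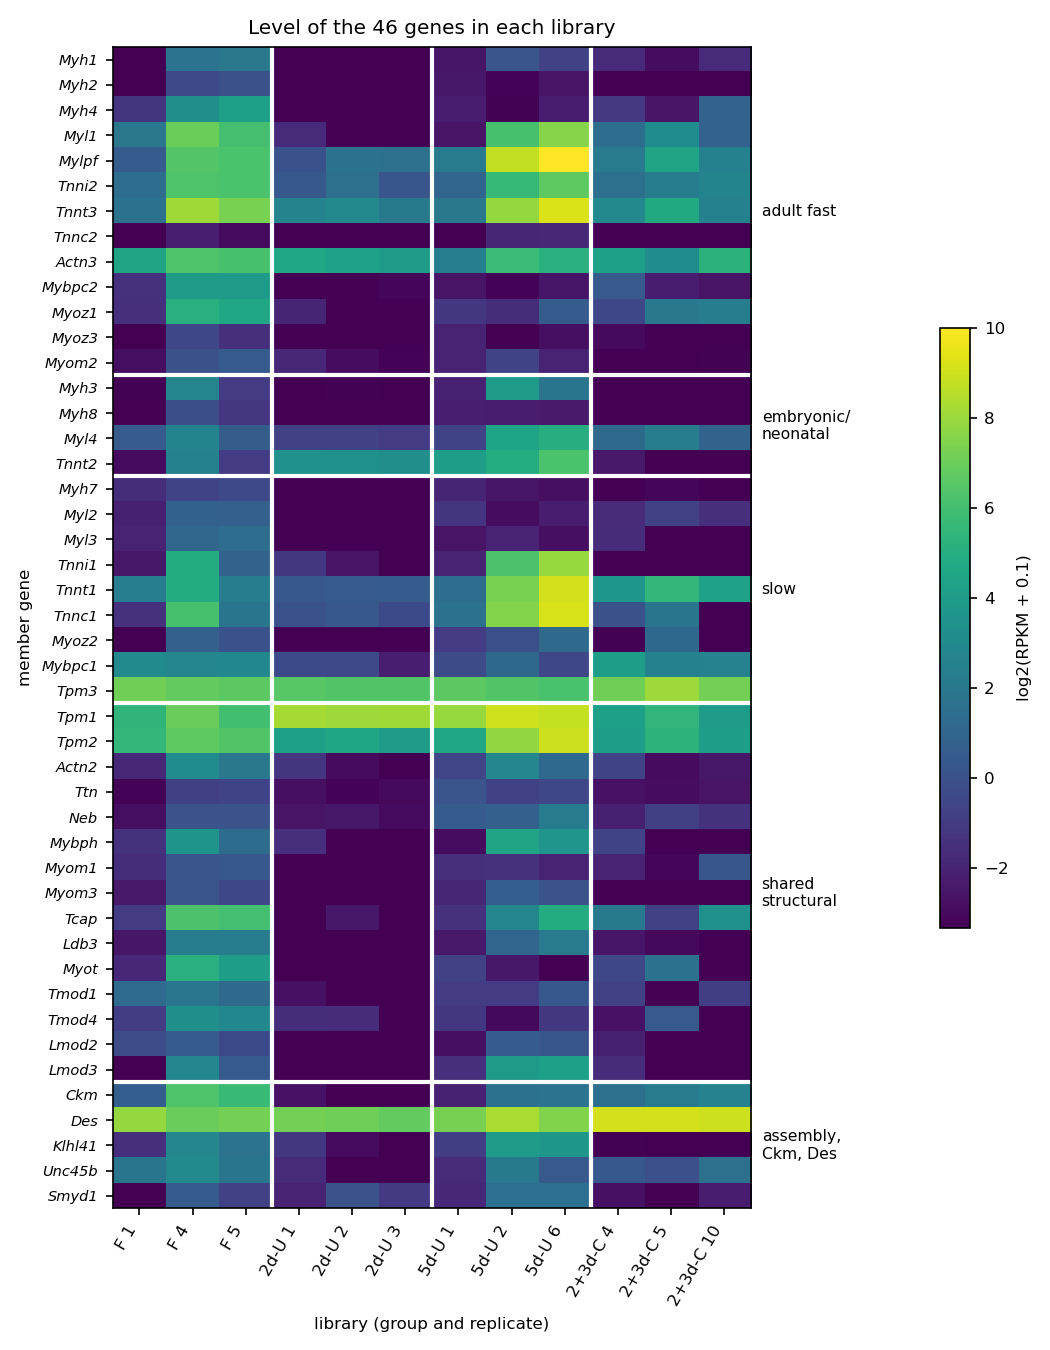
Heat map of the level of each of the 46 genes (rows, in 5 classes) in each of the 12 libraries (columns, named by group and replicate), coloured by log2(RPKM + 0.1). F replicates 4 and 5 and 5d-U replicates 2 and 6 are bright over most rows, while 2d-U and 2+3d-C are dark except for the tropomyosins, Des, Actn3 and a few others.

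The make-up of the high libraries differed between fresh and cultured cells. The adult fast class summed to 33.4, 713 and 505 RPKM in the F libraries, 33.4, 33.3 and 23.6 in those of 2d-U, 16.7, 857 and 1954 in those of 5d-U and 38.5, 74.7 and 63.6 in those of 2+3d-C. The embryonic and neonatal class summed to 1.36, 19.5 and 2.60 in the F libraries, 11.0, 10.8 and 9.81 in those of 2d-U, 18.5, 65.9 and 111 in those of 5d-U and 2.38, 4.74 and 1.81 in those of 2+3d-C. All 3 5d-U libraries were above all 2d-U libraries in this sum, and all 2+3d-C libraries were below those of 2d-U. Tnnt2 alone supplied most of the sum in every 2d-U library, with at least 9.40 RPKM, as it did in 5d-U replicate 1 with 17.7. Myl4 differed in the opposite direction, with at most 0.514 RPKM before compression (2d-U) but at least 1.81 after it. Of the 4 genes of the class, 2 had a positive log2 fold change in 2+3d-C against 2d-U, while 2 had a negative one. The slow class summed to 154, 253 and 121 in the F libraries, 95.9, 85.2 and 86.3 in those of 2d-U, 108, 514 and 1452 in those of 5d-U and 169, 320 and 172 in 2+3d-C, of which Tpm3 alone made up most in F replicate 1, F replicate 5, 2d-U, 5d-U replicate 1 and 2+3d-C.

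**Figure D2:**
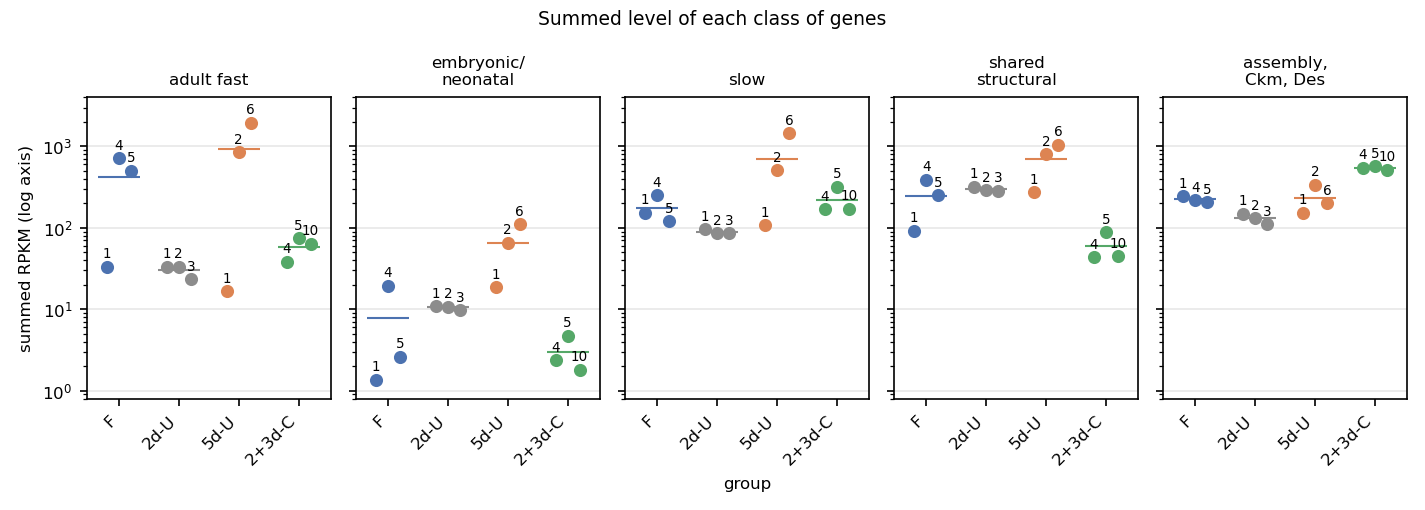
Summed level of each of the 5 classes (panels) in each library, as RPKM on a log axis, with points marked by replicate number and a line at the group mean. In 5d-U, replicates 2 and 6 stand above replicate 1 in all panels, and in the panel with Ckm and Des the 3 2+3d-C libraries (518 to 568) stand above the other 9.

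Myosin heavy chains are the motors of the thick filament, and their genes for embryonic (Myh3), neonatal (Myh8), slow (Myh7) and fast fibres (Myh2, Myh1 and Myh4) are used one after another or fibre by fibre. Myh3 (ENSMUSG00000020908.14; mm10 chromosome 11, 67078300 to 67102291) had 0.00687, 6.57 and 0.414 RPKM in the F libraries, 0, 0.00647 and 0 in those of 2d-U, 0.129, 14.2 and 3.51 in those of 5d-U, and 0 in all 2+3d-C libraries. Its RNA was thus high in 5d-U replicates 2 and 6 and in F replicate 4. Myh4 (ENSMUSG00000057003.12; chromosome 11, 67238029 to 67260446), the chain of the fastest fibres, had 0.297, 9.61 and 18.4 RPKM in the F libraries, 0 in all 2d-U cultures, 0.108, 0.00580 and 0.106 in those of 5d-U and 0.359, 0.0602 and 1.72 in those of 2+3d-C. Here F replicates 4 and 5 were the highest, and the 5d-U libraries that were rich in Myh3 had 1 and 13 reads of Myh4. Myh1 reached 3.85 RPKM in F and 1.03 in 5d-U. Myh8 had 0, 0.830 and 0.329 RPKM in the F libraries, 0.115, 0.101 and 0.0956 in those of 5d-U, 1 read in 2+3d-C replicate 4 and none elsewhere. Myh2 and Myh7 were likewise under 1 RPKM in all libraries and highest in F replicate 5.

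Of the summed RPKM of the 6 heavy chain genes, Myh3 made up 92.1% in 5d-U replicate 2 and 81.1% in replicate 6, on 2701 and 554 reads. In F replicates 4 and 5, on 4275 and 6066 reads, Myh4 was the largest part with 44.8% and 74.9%, and Myh3 held 30.6% and 1.69%. F replicate 4 thus held both an adult fast and the embryonic chain in quantity. In 2+3d-C replicates 4 and 10, on 184 and 257 reads, Myh4 held 64.0% and 88.9%, with Myh1 next at 35.3% and 11.1%. The shares moved by at most 3 percentage points when the reads expected from the silent families were subtracted, apart from 5d-U replicate 1, where fewer than 100 reads were then left. Libraries with under 100 reads on these genes, all 2d-U libraries, F replicate 1 and 2+3d-C replicate 5, gave no share. Between 7.05% and 20.9% of the 75-base windows of Myh1, Myh2, Myh4, Myh7 and Myh8 occur in another gene, against 1.84% for Myh3, and reads in such windows were not counted, so the levels of the former 5 are low estimates.

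**Figure D3:**
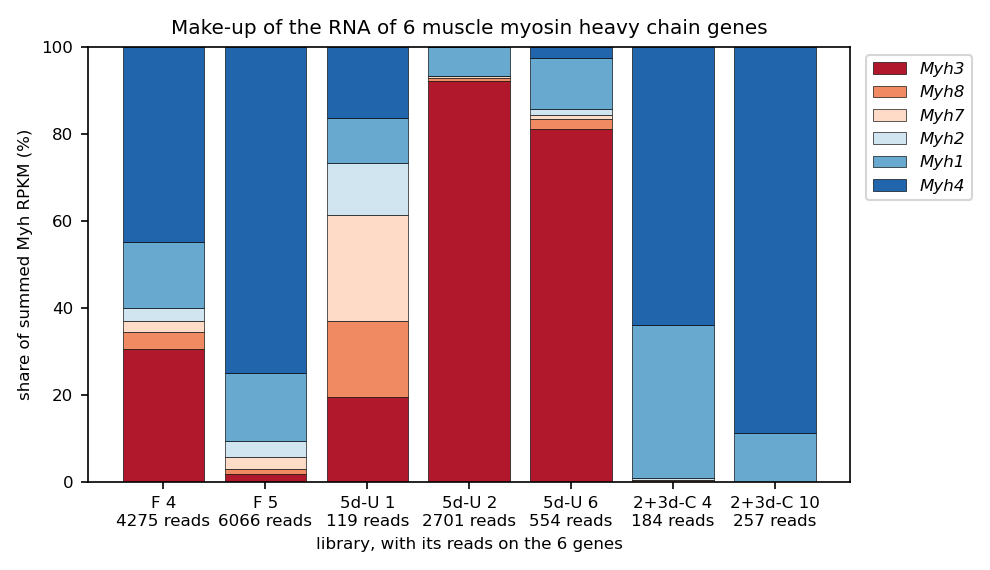
Share (%) of each of 6 myosin heavy chain genes in their summed RPKM, as stacked bars for the 7 libraries with at least 100 reads on these genes, with the number of reads under each bar. Myh3 fills 92.1% and 81.1% of the bars of 5d-U replicates 2 and 6, and Myh4 fills the largest part in F and 2+3d-C, while 5d-U replicate 1 has 119 reads spread over all 6 genes.

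Light chains stand at the neck of each myosin head. Mylpf (ENSMUSG00000030672.12; chromosome 7, 127208890 to 127214298), the fast regulatory light chain, had 1.37, 85.9 and 74.4 RPKM in the F libraries, 0.908, 3.03 and 2.90 in those of 2d-U, 4.63, 443 and 1004 in those of 5d-U and 4.64, 21.5 and 5.72 in those of 2+3d-C. Myl1, an essential light chain of fast fibres that is also made in embryonic muscle, had 3.75, 128 and 66.5 in the F libraries, 0.201, 0 and 0 in those of 2d-U, 0.0629, 69.8 and 192 in those of 5d-U and 2.67, 8.74 and 1.74 in those of 2+3d-C. Both were highest in 5d-U replicate 6, and in 5d-U replicate 1 Myl1 had 3 reads. Myl4, the embryonic and atrial essential light chain, had 1.32, 6.35 and 1.44 RPKM in the F libraries, 0.514, 0.499 and 0.406 in those of 2d-U, 0.572, 21.1 and 31.2 in those of 5d-U and 2.30, 4.74 and 1.81 in those of 2+3d-C. The slow and cardiac light chains Myl2 and Myl3 stayed under 3 RPKM in all libraries, with their highest values in F.

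Troponin I holds the thin filament off, troponin T ties the complex to tropomyosin and troponin C binds calcium. Tnni1 (ENSMUSG00000026418.16; chromosome 1, 135779434 to 135810989), the slow troponin I, which is also the form of embryonic muscle, had 0.0809, 29.2 and 1.76 RPKM in the F libraries, 0.352, 0.0653 and 0 in those of 2d-U, 0.145, 77.6 and 247 in those of 5d-U, and 0 in each 2+3d-C library. Its fast partner Tnni2 had 2.64, 80.7 and 74.5 in the F libraries, 1.16, 2.88 and 1.08 in those of 2d-U, 1.95, 48.4 and 102 in those of 5d-U and 2.92, 4.84 and 6.26 in those of 2+3d-C. Of the sum of the pair, Tnni1 was 61.6% and 70.7% in 5d-U replicates 2 and 6, 26.5% and 2.31% in F replicates 4 and 5, and 0% in each 2+3d-C library. Tnnc1, the slow and cardiac troponin C, had 0.280, 69.8 and 3.50 in the F libraries, 0.908, 1.13 and 0.702 in those of 2d-U, 3.05, 187 and 593 in those of 5d-U and 0.901, 3.48 and 0 in those of 2+3d-C. Its fast counterpart Tnnc2 had so few reads (at most 0.183 RPKM) that it could not be tested, but 74.0% of its exon bases also belong to Ube2c, and reads on 2 genes were not counted.

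Of the troponins T, Tnnt2 alone separated the uncompressed cultures from all F and 2+3d-C libraries. Tnnt2 (ENSMUSG00000026414.13; chromosome 1, 135836354 to 135852260), the cardiac form that is also made in embryonic skeletal muscle, had 0.0322, 5.79 and 0.421 RPKM in the F libraries, 10.4, 10.3 and 9.40 in those of 2d-U, 17.7, 30.5 and 76.0 in those of 5d-U and 0.0847, 0 and 0 in those of 2+3d-C. It was the embryonic gene that all 2d-U libraries held at 9.40 RPKM or more, and 5d-U replicate 1 held it too. Tnnt1, the slow form, had 5.17, 29.4 and 4.72 in the F libraries, 1.11, 1.28 and 1.39 in those of 2d-U, 2.70, 161 and 538 in those of 5d-U and 12.8, 44.3 and 19.4 in those of 2+3d-C. Tnnt3, the fast form, had 3.13, 273 and 157 in the F libraries, 6.03, 7.55 and 4.06 in those of 2d-U, 3.90, 240 and 618 in those of 5d-U and 7.64, 27.0 and 5.77 in those of 2+3d-C. Of the sum of Tnnt1 and Tnnt3, the slow form made up 62.5%, 62.1% and 77.0% in 2+3d-C, 62.3% in F replicate 1, but 9.72% and 2.92% in F replicates 4 and 5.

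Tropomyosins wind along the actin filament, and those of Tpm1, Tpm2 and Tpm3 include short forms of non-muscle cells that the counts per gene do not set apart from the muscle forms. Tpm1 (ENSMUSG00000032366.15; chromosome 9, 67022590 to 67049406) had 42.5, 123 and 63.1 RPKM in the F libraries, 300, 267 and 270 in those of 2d-U, 246, 518 and 461 in those of 5d-U and 18.5, 44.2 and 15.6 in those of 2+3d-C. All 6 uncompressed cultures lay above all F and 2+3d-C libraries. Tpm2 had 44.8, 103 and 82.4 in the F libraries, 18.7, 23.3 and 15.1 in those of 2d-U, 24.7, 225 and 510 in those of 5d-U and 17.7, 39.7 and 16.8 in those of 2+3d-C. Tpm3 was highest in compressed cells, with 139, 112 and 98.4 in the F libraries, 92.9, 82.1 and 84.1 in those of 2d-U, 100, 84.5 and 71.1 in those of 5d-U and 138, 264 and 147 in those of 2+3d-C. For Tpm3, 19.1% of the 75-base windows occur in related sequences, chiefly of processed copies.

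Desmin, the intermediate filament of muscle cells that links Z-discs and is already made in myoblasts, was the most abundant of these RNAs in compressed cells. Des (ENSMUSG00000026208.9; chromosome 1, 75360329 to 75368579) had 238, 124 and 149 RPKM in the F libraries, 148, 131 and 111 in those of 2d-U, 153, 314 and 180 in those of 5d-U and 545, 562 and 509 in those of 2+3d-C. Each 2+3d-C library was above the other 9. Ckm, the muscle creatine kinase, had 1.47, 79.6 and 52.5 in the F libraries, 0.0584, 0 and 0 in those of 2d-U, 0.134, 3.07 and 3.31 in those of 5d-U and 2.88, 4.64 and 5.87 in those of 2+3d-C. Klhl41 (ENSMUSG00000075307.3; chromosome 2, 69670120 to 69684230), a Kelch protein that stabilizes nebulin, had 0.247, 7.06 and 3.24 in the F libraries, 0.344, 0.0310 and 0 in those of 2d-U, 0.447, 15.5 and 13.1 in those of 5d-U and 0.00742, 0 and 0 in those of 2+3d-C. Smyd1, a methyltransferase needed for myosin assembly, had 0, 1.38 and 0.523 in the F libraries, 0.141, 0.957 and 0.375 in those of 2d-U, 0.191, 2.86 and 2.77 in those of 5d-U and 0.0536, 0 and 0.101 in those of 2+3d-C. Unc45b, a myosin chaperone, reached 8.20 RPKM in F replicate 4 and 4.10 in 5d-U replicate 2.

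Of the Z-disc genes listed here, F replicates 4 and 5 held the most, and F replicate 1 did not. Actn3, the fast alpha-actinin that crosslinks thin filaments, had 21.7, 79.1 and 68.6 RPKM in the F libraries, 24.7, 19.8 and 15.5 in those of 2d-U, 5.20, 54.3 and 34.7 in those of 5d-U and 18.2, 8.49 and 37.2 in those of 2+3d-C. It was the one adult fast gene at over 5 RPKM in all libraries. Tcap, the titin cap, had 0.395, 78.1 and 64.5 in the F libraries, 0, 0.0827 and 0 in those of 2d-U, 0.275, 6.70 and 29.1 in those of 5d-U and 4.10, 0.510 and 10.1 in those of 2+3d-C. Myot (myotilin) had 0.188, 35.4 and 17.8 in the F libraries, 0 in those of 2d-U, 0.492, 0.0790 and 0 in those of 5d-U and 0.654, 3.12 and 0 in 2+3d-C, and Myoz1, a calsarcin of fast fibres, had 0.242, 35.2 and 25.0 in the F libraries, 0.160, 0 and 0 in those of 2d-U, 0.345, 0.240 and 1.34 in those of 5d-U and 0.644, 3.96 and 4.95 in those of 2+3d-C. For Myot and Myoz1 the 5d-U libraries stayed at or under 1.34 RPKM, while those of F replicates 4 and 5 were at 17.8 or more. Ldb3, which binds alpha-actinin, had 0.0750, 4.95 and 4.99 in the F libraries, 0 in those of 2d-U, 0.0855, 1.90 and 4.16 in those of 5d-U and 0.0768, 0.0198 and 0 in those of 2+3d-C.

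Long and regulatory components had low levels per length. Ttn, the spring that spans the half-sarcomere, had 0.00886, 0.484 and 0.530 RPKM in the F libraries, 0.0472, 0.00902 and 0.0285 in those of 2d-U, 1.02, 0.507 and 0.611 in those of 5d-U and 0.0566, 0.0371 and 0.0631 in those of 2+3d-C. In 5d-U replicate 1 its 2760 reads compare with 450 expected from the silent families, so that Ttn was high there although Myh3 was not above that density. Neb (nebulin, the ruler of the thin filament) had 0.0406, 0.952 and 0.969 in the F libraries, 0.0624, 0.0837 and 0.0324 in those of 2d-U, 1.37, 1.57 and 4.52 in those of 5d-U and 0.124, 0.476 and 0.291 in those of 2+3d-C. Lmod3, which caps and lengthens thin filaments, had 0, 6.73 and 1.29 in the F libraries, 0 in those of 2d-U, 0.255, 14.5 and 18.2 in those of 5d-U and 0.220, 0 and 0 in those of 2+3d-C. The M-band genes, whose proteins crosslink thick filaments, stayed under 1.5 RPKM in all libraries. Myom3 had 0.0896, 1.06 and 0.608 in the F libraries, 0.166, 1.49 and 0.964 in those of 5d-U and no read elsewhere. Myom2 had 0.0423, 0.878 and 1.25 in the F libraries, 0.186, 0.0354 and 0.00751 in those of 2d-U, 0.152, 0.564 and 0.138 in those of 5d-U and 0.00212, 0 and 0.00516 in those of 2+3d-C. Myom1 had 0.231, 1.04 and 1.12 in the F libraries, 0.00181, 0 and 0 in those of 2d-U, 0.250, 0.267 and 0.145 in those of 5d-U and 0.143, 0.0116 and 1.09 in those of 2+3d-C. Myom3 thus followed Myh3, whereas Myom1 was as high in 2+3d-C replicate 10 as in F. Mybph had 0.286, 11.8 and 2.48 in the F libraries, 0.260, 0 and 0 in those of 2d-U, 0.0374, 21.7 and 12.1 in those of 5d-U and 0.548, 0 and 0 in 2+3d-C, with 49.9% of its exon bases shared with Adora1. Of the members not yet named, Actn2 (the alpha-actinin of all fibres) reached 8.52 RPKM in F replicate 4 and 7.04 in 5d-U replicate 2, the thin filament caps Tmod1 and Tmod4 reached 3.62 and 9.69 in F replicate 4, the thin filament elongator Lmod2 reached 1.395 in 5d-U replicate 2, and the calsarcins Myoz2 and Myoz3 reached 2.37 in 5d-U replicate 6 and 0.617 in F replicate 4.

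Of myosin binding protein C, which brakes the myosin heads, the level of the slow form split by group. Mybpc1 (ENSMUSG00000020061.18; chromosome 10, 88518279 to 88605152), the slow form, had 8.11, 7.16 and 7.25 RPKM in the F libraries, 0.685, 0.666 and 0.118 in those of 2d-U, 0.769, 2.14 and 0.627 in those of 5d-U and 17.2, 5.68 and 5.89 in those of 2+3d-C. It was alike in all F libraries, and every uncompressed culture was below every F and 2+3d-C library. Mybpc2, the fast form, had 0.277, 15.1 and 14.5 in F and at most 1.21 RPKM in any culture. Of the 2 forms together, Mybpc1 made up 96.7% in F replicate 1, 32.1% and 33.4% in F replicates 4 and 5, and 93.5%, 98.3% and 98.9% in 2+3d-C. The uncompressed cultures had such high shares too, with 100% in 2d-U replicates 1 and 2 and 92.7%, 99.55% and 90.25% in 5d-U. 2d-U replicate 3 had too few reads for a share. Low shares were thus found in F replicates 4 and 5 only.

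**Figure D4:**
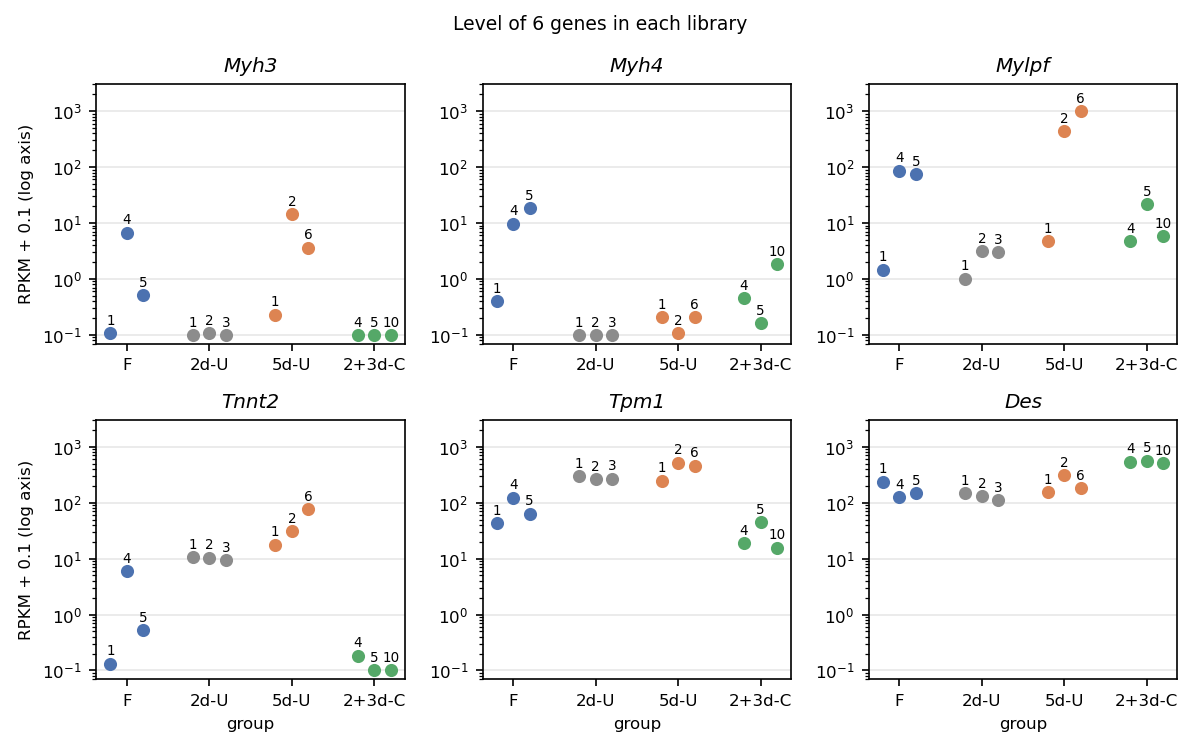
Level of Myh3, Myh4, Mylpf, Tnnt2, Tpm1 and Des in each library, as RPKM + 0.1 on a log axis, by group and marked by replicate number. Tnnt2 and Tpm1 are lower in all 2+3d-C libraries than in all 2d-U and 5d-U libraries, Des is higher, and Myh3 and Mylpf are spread over more than 10-fold within 5d-U.

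The comparison of 2+3d-C with 5d-U asks how cells under compression differ from cells of the same age in culture. Of the 45 genes tested, 18 were lower in 2+3d-C and 3 were higher, and 24 were not called (edgeR's quasi-likelihood test, adjusted p under 0.05). Over all genes tested, 13.4% were lower and 9.14% higher. The median log2 fold change was -3.36 over the 45 genes and -1.05 over all genes. The 18 lower genes held 4 of 12 adult fast genes tested (Mylpf, Tnni2, Tnnt3 and Myom2), 3 of 4 embryonic and neonatal genes (Myh3, Myh8 and Tnnt2), 2 of 9 slow genes (Tnni1 and Tnnc1), 7 of 15 shared structural genes (Tpm1, Tpm2, Ttn, Neb, Myom3, Ldb3 and Lmod3) and, of the last class, Klhl41 and Smyd1. The 3 higher genes were Mybpc1, Tpm3 and Des.

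Tpm1 fell by 3.97 (standard error 0.555, adjusted p = 0.000235) and Tnnt2 by 10.1 (standard error 1.76, adjusted p = 0.00117), each with all 2+3d-C libraries below all 5d-U libraries. Tnni1, Myh3 and Klhl41 were at 3 or fewer reads in all 2+3d-C libraries, so that they were at least 2105-fold, 194-fold and 132-fold lower (adjusted p = 0.00823, 0.00855 and 0.00379). These 5 genes were the ones called lower in all 22 alternative settings, which include the loss of each library in turn. In 5d-U replicate 1 Tnni1, Myh3 and Klhl41 had 12, 18 and 26 reads, within 3 times the density on silent families, so that the mean of 5d-U rests on replicates 2 and 6, whereas Tnnt2 and Tpm1 had 3152 and 36694 reads there. Tpm2, Myom3, Ttn and Tnnc1 were further called without any 1 library, with adjusted p of 0.00727, 0.00557, 0.0161 and 0.0170. Tpm2 fell by 3.36, Ttn fell by 3.76 and Tnnc1 fell by 7.62, and Myom3 was at least 28.4-fold lower. With the scaling kept, the limits rest on single libraries in part, and that of Tnni1 was 755-fold without 5d-U replicate 6, and those of Myh3 and Myom3 were 59.5-fold and 18.4-fold without 5d-U replicate 2. Without 2+3d-C replicate 5, the shallowest library, the limits of Tnni1, Myh3, Klhl41 and Myom3 were 4034-fold, 372-fold, 253-fold and 54.4-fold.

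The other 9 lower genes each lost the call when at least 1 of the 12 libraries was left out. The number lower was 11 without 5d-U replicate 6, 11 without 2+3d-C replicate 10, 12 without 2+3d-C replicate 4, 14 without 5d-U replicate 2, and 15 to 21 without any other library, and without 1 library 6.39% to 11.1% of all genes were lower. Mylpf fell by 5.53 (standard error 1.54, adjusted p = 0.0191), and by 5.18 without 2+3d-C replicate 4 (adjusted p = 0.0563). For Mylpf, Tnni2, Tnnt3, Tnnc1 and Tpm2 the groups overlapped, because 5d-U replicate 1 lay among or below the 2+3d-C libraries. With the 4 libraries that carry silent-family reads left out, which leaves 5d-U with replicate 2 alone, 9 genes were lower and neither Des, Tpm3 nor Mybpc1 was called.

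The 3 higher genes were less stable, and 0 to 2 genes were higher without any 1 library other than F replicate 1, without which 5 were. Mybpc1 rose by 3.03 (standard error 0.753, adjusted p = 0.0104), and by 2.28 without 2+3d-C replicate 4 (adjusted p = 0.0522). Des rose by 1.32 (standard error 0.393, adjusted p = 0.0264) with the 2+3d-C libraries all above, but the adjusted p passed 0.05 without any 1 of 7 libraries: 0.112 and 0.0985 without 5d-U replicates 1 and 6, 0.0519 to 0.0537 without a 2d-U library, and 0.0711 and 0.0690 without 2+3d-C replicates 4 and 10. Tpm3 rose by 1.10 (standard error 0.367, adjusted p = 0.0436) and was called in 6 of 22 alternatives, with an adjusted p of 0.0575 to 0.157 without any 1 library but F replicate 1. Of the 24 genes not called, Tnnt1 had a log2 fold change of -3.20 (adjusted p = 0.0606) and Myl4 of -2.58 (adjusted p = 0.0708), while Myh4 had 3.31 (adjusted p = 0.0982) and Mybpc2 3.36 (adjusted p = 0.0983). Fitted values of both signs thus stood within the adult fast, slow and shared classes, and the 4 embryonic and neonatal genes all had negative ones.

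**Figure D5:**
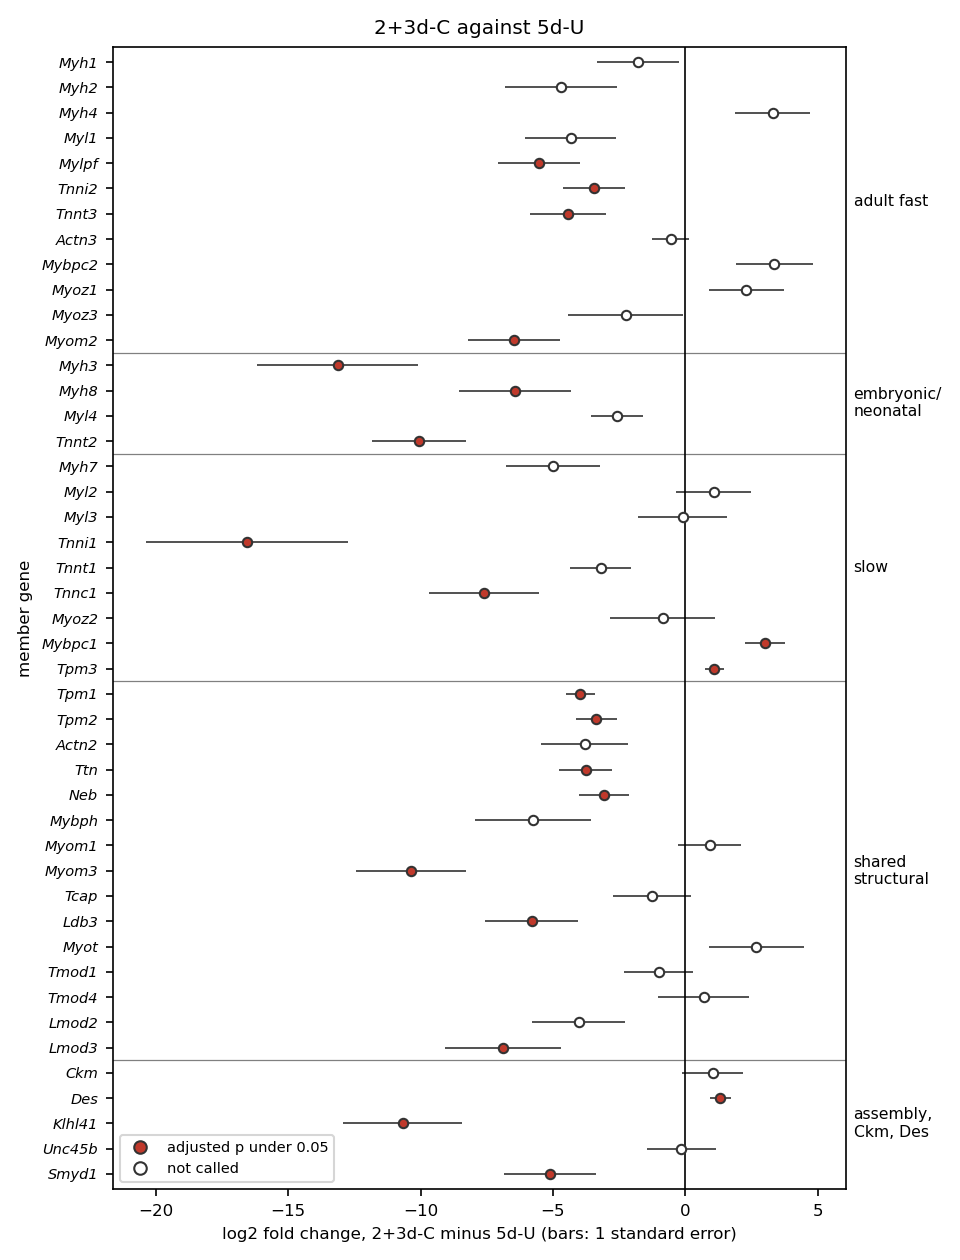
Fitted log2 fold change of the 45 genes tested, 2+3d-C minus 5d-U, with bars of 1 standard error, in 5 classes and filled where the adjusted p was under 0.05. Of the filled points 18 lie left of 0 and 3 (Mybpc1, Tpm3 and Des) right of it, and the widest bars belong to Tnni1 and Myh3, which had no reads in 2+3d-C and whose fitted values are not bounds.

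The promoters of 5 of these genes are shown because they stand for the patterns above: Myh3, Mylpf and Klhl41 for the RNAs of 5d-U replicates 2 and 6, Ckm for those of F replicates 4 and 5, and Des for the RNA that was highest in 2+3d-C. Each is the 250 bases before the gene's start in RefSeq on build GRCm38.p6, on the plus strand, 5′ to 3′, with 3 motifs in capitals, both strands searched. They are CAGCTG, the palindromic core of many E-boxes bound by MyoD and myogenin, the CTA-TAG string (CTA, then 4 bases of any kind, then TAG), and TATAAA. The CTA-TAG string is looser than a MEF2 site, so that a match need not be such a site.
Coordinates are chr11:67078050-67078299 for Myh3, chr7:127211358-127211607 for Mylpf, chr2:69669870-69670119 for Klhl41, chr7:19410844-19411093 for Ckm and chr1:75360042-75360291 for Des.
Myh3: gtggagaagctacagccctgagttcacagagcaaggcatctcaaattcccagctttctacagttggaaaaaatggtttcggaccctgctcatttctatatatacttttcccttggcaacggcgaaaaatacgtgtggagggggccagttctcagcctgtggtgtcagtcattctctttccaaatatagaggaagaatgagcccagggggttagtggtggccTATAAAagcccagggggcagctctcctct
Mylpf: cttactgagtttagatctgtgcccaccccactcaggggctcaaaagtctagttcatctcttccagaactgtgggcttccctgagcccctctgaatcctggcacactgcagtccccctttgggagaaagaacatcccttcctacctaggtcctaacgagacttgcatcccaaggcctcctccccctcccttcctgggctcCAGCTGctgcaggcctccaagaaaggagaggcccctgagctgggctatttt
Klhl41: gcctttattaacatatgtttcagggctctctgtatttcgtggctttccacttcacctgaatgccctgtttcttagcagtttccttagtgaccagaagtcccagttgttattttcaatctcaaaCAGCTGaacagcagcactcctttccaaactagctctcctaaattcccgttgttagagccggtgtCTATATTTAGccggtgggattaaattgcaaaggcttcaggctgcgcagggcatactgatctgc
Ckm: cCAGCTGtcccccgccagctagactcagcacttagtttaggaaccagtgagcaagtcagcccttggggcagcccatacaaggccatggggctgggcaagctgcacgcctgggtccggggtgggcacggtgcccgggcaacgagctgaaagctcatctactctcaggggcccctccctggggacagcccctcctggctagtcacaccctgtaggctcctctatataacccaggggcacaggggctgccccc
Des: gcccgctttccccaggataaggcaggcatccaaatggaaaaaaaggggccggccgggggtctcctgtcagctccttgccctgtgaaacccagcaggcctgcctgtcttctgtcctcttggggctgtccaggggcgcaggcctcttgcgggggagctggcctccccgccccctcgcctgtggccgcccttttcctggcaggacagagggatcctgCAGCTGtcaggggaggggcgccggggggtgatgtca
CAGCTG stands once in Mylpf, Klhl41, Ckm and Des, the CTA-TAG string once in Klhl41 and TATAAA once in Myh3, and no match overlaps another in the 5 windows. RefSeq windows were matched for 36 of the 46 genes, with 42 windows in all. CAGCTG was in 35.7% of these and in 13.0% of all 32851 windows of the same length, the CTA-TAG string in 9.52% and 3.20%, and TATAAA in 21.4% and 12.4%. The 14 genes with CAGCTG include Des, Tpm3 and Mybpc1, the 3 genes that rose in 2+3d-C against 5d-U, and also Tnnt2, Tnni1, Klhl41, Mylpf and Tpm2, which fell, so that genes of both directions held it. A match is a string of letters and does not show that a factor binds.

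5d-U against 2d-U asks what further culture alone does. Of the 45 genes 13 were higher in 5d-U and none lower, against 1.87% higher and 0.243% lower over all genes. With edgeR 35 genes were higher and 0 lower at an unadjusted p under 0.05 (33% and 2.06% of all genes), and DESeq2 called 29 and 0 (10.7% and 1.74% of all genes). The median log2 fold change was 6.20 (1.13 over all genes). The 13 were Myl1 and Mylpf of the adult fast genes, Myh3 and Myl4 of the embryonic ones, Tnnt1 of the slow ones, Tpm2, Ttn, Neb, Myom1, Myom3, Ldb3 and Lmod3, and Ckm. Tnnt1 rose by 7.54 (standard error 1.43, adjusted p = 0.0208) and was the one gene called without any 1 library. Myh3 was at least 448-fold higher and Lmod3 at least 303-fold (adjusted p = 0.0462 and 0.0482). All 5d-U libraries were above all 2d-U libraries for 29 of the 45 genes, as they were for 31.7% of all genes. Without 5d-U replicate 2 the limit for Myh3 was 138-fold.

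These calls depended on libraries of all groups, those not compared included. The number of higher genes was 22 without 5d-U replicate 1, 18 without replicate 2 and 8 without replicate 6. It was 7, 3 and 1 without 2d-U replicates 1, 2 and 3. Of the groups not compared, leaving out F replicates 4 and 5 gave 8 and 3, and leaving out 2+3d-C replicates 4, 5 and 10 gave 21, 22 and 25. Over all genes the share higher ran from 0.525% without 2d-U replicate 3 to 4.44% without 2+3d-C replicate 10. The number of higher members was 1 after the reads expected from silent families had been subtracted, when 89 of all 18667 genes tested were higher. Without TMM scaling 2 genes were higher, and over all genes 126 were higher and 45 lower in place of 424 and 55. Myog, the transcription factor that starts terminal differentiation, had 2.18, 0.472 and 1.78 RPKM in 2d-U and 0.378, 586 and 1108 in 5d-U (log2 fold change 8.57, adjusted p = 0.0607), so that it was high in the same 5d-U libraries as the sarcomere genes.

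2+3d-C against 2d-U compares the compressed cells with the state before the device was applied. Of the 45 genes 16 were higher and 2 lower, against 16% higher and 8.63% lower over all genes, and the median log2 fold change was 2.31 against 0 over all genes. Without TMM scaling 12 were higher and 3 lower, and 2537 and 3139 of all genes in place of 3619 and 1954. The higher genes were 5 adult fast (Myh1, Myh4, Myl1, Mybpc2 and Myoz1), 5 slow (Myl2, Tnnt1, Myoz2, Mybpc1 and Tpm3), 3 shared (Myom1, Tcap and Myot), and Ckm, Des and Unc45b. The lower ones were Tnnt2 (-8.02, standard error 1.63, adjusted p = 0.00290) and Tpm1 (-3.42, standard error 0.541, adjusted p = 0.000488). Mybpc1 rose by 4.29 (standard error 0.798, adjusted p = 0.00153) and Tnnt1 by 4.34 (standard error 1.24, adjusted p = 0.0199), and these 4 genes were called in all 22 alternatives. Des rose by 2.05 (standard error 0.401, adjusted p = 0.00221), Ckm by 7.54 (standard error 1.58, adjusted p = 0.00351), and Myh4, with no read in 2d-U, was at least 53.6-fold higher (adjusted p = 0.00574), or 15.7-fold without 2+3d-C replicate 10. Leaving out 2d-U replicate 3 left 9 higher genes, and leaving out any other library left 11 to 17, and without 1 library 8.38% to 13.5% of all genes were higher.

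Many of these RNAs were low in absolute terms, with a mean of 0.714 RPKM for Myh4, 4.46 for Ckm and 4.38 for Myl1 in 2+3d-C. Their replicates differed too. Myoz2 had 1, 58 and 0 reads, and without 2+3d-C replicate 5 its log2 fold change of 9.16 (adjusted p = 0.0425) became 2.06 (adjusted p = 0.576). Markers of myofibres outside the sarcomere, 10 genes such as Pvalb, Mb and Pgam2, moved with them. They summed to 82.8 to 105 CPM in 2+3d-C with 5 to 9 of the 10 above 3 reads, against 0.288 to 1.18 CPM in 2d-U with 1 or 2 above, where 7 to 9 were at 0. In F the sum was 27.4, 456 and 418 CPM and in 5d-U 8.31, 174 and 442, highest in the same libraries as the sarcomere genes. Their part in the results was not tested.

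2+3d-C against F compares compressed with freshly isolated cells. Of the 45 genes 7 were lower (Tnnt2, Myh3, Myh8, Myh7, Myom2, Myom3 and Klhl41) and Des was higher, against 4.47% lower and 1.94% higher over all genes. The median log2 fold change was -3.71 (-0.76 over all genes). Des rose by 1.66 (standard error 0.396, adjusted p = 0.0290). Klhl41 was at least 48.0-fold lower and Myh3 at least 76.2-fold (adjusted p = 0.0278 and 0.0386). Without F replicate 4 these limits were 23.8-fold and 6.87-fold, and without 2+3d-C replicate 5, the shallowest library, 92.0-fold and 146-fold. None of these 8 calls held without F replicate 4 or without F replicate 5, when no gene was called in either direction, while 28 were lower and 1 higher without F replicate 1, when 32% of all genes were lower and 4.27% higher. The number lower was 13 without 5d-U replicate 1, 3 without 2+3d-C replicate 5 and 2 without replicate 10, and Des was not called without either of the latter 2. At an unadjusted p under 0.05, 28 genes were lower in the full fit and 1 higher, against 28.7% and 8.11% of all genes. Without TMM 9 were lower and none higher, with 1217 and 142 of all genes in place of 1011 and 438, and with the size factors of DESeq2 in edgeR 1097 and 267. F replicate 1 lay below the 2+3d-C libraries in the sum of the 41 genes (37.7 against 65.2 to 138 RPKM).

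5d-U against F gave 3 higher (Tnnt2, Tnnt1 and Tpm1) and 6 lower genes (Myh4, Mybpc2, Myoz1, Mybpc1, Myot and Ckm), against 11.6% higher and 8.9% lower over all genes. With the size factors of DESeq2, 1998 of all genes were higher and 2584 lower in place of 2629 and 2014. The lower genes were 3 adult fast isoforms, the slow Mybpc1, Myot and Ckm, and the higher ones were a slow and an embryonic troponin T and a tropomyosin. Tpm1 rose by 2.42 (standard error 0.519, adjusted p = 0.00401), Myh4 fell by 7.02 (standard error 1.65, adjusted p = 0.00878) and Mybpc2 fell by 7.76 (standard error 1.73, adjusted p = 0.00512), and these 3 were called without any 1 library. Tnnt2 rose by 4.31 (standard error 1.34, adjusted p = 0.0329), but the adjusted p was 0.0910 without 5d-U replicate 6, 0.0810 without F replicate 1 and 0.114 without F replicate 5. The number called ran from 1 higher and 3 lower, without 5d-U replicate 6 or without F replicate 5, to 7 higher and 4 lower without 5d-U replicate 1, with 5 higher and 3 lower without F replicate 4 and 1 higher and 6 lower without F replicate 1.

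2d-U against F, the change over the first days of culture, had the most genes called of the 6 comparisons. Of the 45 genes 38 were lower and Tpm1 alone was higher, against 33.3% lower and 10.6% higher over all genes, with a median log2 fold change of -6.16 (-1.63 over all genes). Actn3, Smyd1, Tpm3, Tnnt2, Myom2 and Des were not called. Myh4 was at least 707-fold lower, Tcap at least 563-fold and Myot at least 490-fold (adjusted p = 0.00121, 0.00344 and 0.00562). The limit for Myh4 was 372-fold without F replicate 5 and that for Myot 248-fold without F replicate 4. Ckm fell by 10.9 (standard error 1.77, adjusted p = 0.000643) and Mybpc1 by 3.94 (standard error 0.785, adjusted p = 0.00228), and Tpm1 rose by 1.87 (standard error 0.509, adjusted p = 0.0129). The number lower was 25 without F replicate 4 and 26 without F replicate 5 or 2d-U replicate 3, and Tpm1 was not called without F replicate 5, when no gene was higher. Over all genes the share lower ran from 13.1% to 50.8% without 1 library. Tnnt2 was also higher without F replicate 4. Without the 4 libraries with silent-family reads, which leaves F replicate 1 alone in its group, 1 gene was lower (Mybpc1) and 1 higher (Tnnt2), and Tpm1 was not called. Fibroadipogenic markers (7 genes, all above 3 reads in F) summed to 2324, 9435 and 11100 CPM in the F libraries, again highest in replicates 4 and 5, against 21.2 to 24.1 in those of 2d-U, 22.9 to 76.6 in those of 5d-U and 433 to 659 in those of 2+3d-C. Whether such RNA has a part in the sarcomere levels was not tested.

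The 6 comparisons share libraries, since each group is used in 3 of them. Side by side, Tnnt2 had log2 fold changes of -10.1 in 2+3d-C against 5d-U, -8.02 against 2d-U and -5.75 against F, and Tpm1 had -3.97 and -3.42 against the first 2. For Des the values were 1.32, 2.05 and 1.66, the only gene of the 46 called in the same direction against all 3 groups besides Tnnt2. Against F neither of these 2 calls held without F replicate 4 or without F replicate 5. For Tnnt2 the libraries overlapped there, with 0.0322 RPKM in F replicate 1 and 0.0847 in 2+3d-C replicate 4. Its log2 fold change against F was 0.23 without the 4 libraries with silent-family reads.

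Genes that work beside the sarcomere were read from 4 further lists. The muscle actins, Acta1 (skeletal) and Actc1 (cardiac and embryonic), form the thin filament. Acta1 had 10.8, 1122 and 573 RPKM in the F libraries, 50.5, 48.5 and 27.9 in those of 2d-U, 98.6, 685 and 947 in those of 5d-U and 24.3, 77.6 and 15.9 in 2+3d-C, and Actc1 had 0, 91.2 and 6.76, then 0.0117, 0 and 0, then 0.161, 277 and 254, then 0.545, 0.299 and 0. Both fell in 2+3d-C against 5d-U, by 3.88 (adjusted p = 0.0275) and 9.20 (adjusted p = 0.0159), and Actc1 was at least 3572-fold higher in 5d-U cells than in 2d-U cells (adjusted p = 0.0361). Of 16 genes of excitation-contraction coupling, which links the action potential to calcium release, 5 fell in 2+3d-C against 5d-U and none rose. Over all genes 13.4% fell and 9.14% rose. At an unadjusted p under 0.05 it was 7 and 0, against 30.1% and 13.4% of all genes. Casq2, a calcium store protein, fell by 6.42 (adjusted p = 0.0186) and Stac3, which couples the calcium channel to release, by 4.31 (adjusted p = 0.0215). In 5d-U against 2d-U 2 were higher, against 1.87% of all genes. Casq2, with no read in 2d-U, was at least 325-fold higher (adjusted p = 0.0273), or 113-fold without 5d-U replicate 2.

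Of 9 genes tested of the acetylcholine receptor and the neuromuscular synapse, 6 fell in 2+3d-C against 5d-U and 1 rose. Called or not, 3 of the 9 had a positive log2 fold change and 6 a negative one. Over all genes 13.4% fell and 9.14% rose. Chrna1, the alpha subunit, had 7.47, 50.7 and 4.74 RPKM in the F libraries, 351, 299 and 268 in those of 2d-U, 362, 630 and 746 in those of 5d-U and 15.4, 22.2 and 17.7 in 2+3d-C, and fell by 4.97 (standard error 0.784, adjusted p = 0.000557). Dok7 fell by 6.97 (adjusted p = 0.00222) and Rapsn by 1.51 (adjusted p = 0.0205), and Chrnd and Chrng had no read in 2+3d-C and were at least 376-fold and 659-fold lower (adjusted p = 0.00180 and 0.00379), or 720-fold and 1262-fold without 2+3d-C replicate 5. Chrng encodes the fetal gamma subunit, which the adult epsilon subunit of Chrne replaces. Chrng had 0, 8.39 and 0.170 RPKM in the F libraries, 1.64, 1.82 and 1.39 in those of 2d-U, 2.51, 40.4 and 45.1 in those of 5d-U and 0 in 2+3d-C, while Chrne stayed under 0.4 in all libraries. Chrna1 and Dok7 were thus high in all 6 uncompressed cultures, 5d-U replicate 1 included, like Tnnt2 and Tpm1. Chrnb1, another receptor subunit, differed the other way, with 61.2 to 67.5 RPKM in 5d-U and 151 to 180 in 2+3d-C.

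Of 9 myogenic factors and fusion genes, Myog, Mymk and Mymx fell in 2+3d-C against 5d-U, and Myod1 and Mef2d rose, where 13.4% of all genes fell and 9.14% rose. Mymk, the fusion protein myomaker, had 0.441, 32.3 and 1.57 RPKM in the F libraries, 1.33, 0 and 0 in those of 2d-U, 1.32, 44.8 and 224 in those of 5d-U and 0 in 2+3d-C, at least 735-fold lower (adjusted p = 0.0100), or 188-fold without 5d-U replicate 6 and 1408-fold without 2+3d-C replicate 5. Mef2d, a partner of the MyoD family on muscle promoters, had 8.47, 12.7 and 16.2 in the F libraries, 9.22, 6.59 and 6.95 in those of 2d-U, 4.38, 1.46 and 3.22 in those of 5d-U and 38.4, 13.6 and 32.6 in 2+3d-C, and rose by 3.23 (standard error 0.529, adjusted p = 0.000753). Myod1 rose by 1.76 (adjusted p = 0.0101). Myog, Mymk and Mymx had 1 read in all in the 3 2+3d-C libraries, in which Myod1 had its highest levels (2235 to 4548 RPKM against 297 to 1278 elsewhere).

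Markers of other cells moved with the groups. Endothelial markers (7 genes) summed to 1089 to 1484 CPM over the F libraries, 10.8 to 13.9 in those of 2d-U, 7.89 to 39.5 in those of 5d-U and 129 to 235 in 2+3d-C, with all 7 above 3 reads in F and 2+3d-C. Smooth muscle and pericyte markers (8 genes), some of which cultured muscle cells also make, summed to 951 to 1157, 117 to 160, 95.3 to 790 and 390 to 546 CPM, with Myh11 and Rgs5 at 0 in 2d-U. Glial markers (5 genes) summed to 430 to 736, 2.17 to 2.63, 5.86 to 11.0 and 183 to 611, erythroid markers (5 genes) to 160 to 673, 0.118 to 0.199, 0.105 to 0.391 and 27.4 to 318, and immune markers (7 genes) to 124 to 251, 0.665 to 2.44, 1.26 to 22.3 and 0.274 to 6.77. Cardiac genes outside the list (7 genes) were low, at 3.25 to 13.9 CPM in the F libraries, 0.244 to 0.431 in those of 2d-U, 0.698 to 6.31 in those of 5d-U and 2.54 to 5.90 in 2+3d-C, with Nppa at 0 in all but 3 libraries. Endothelial, glial, erythroid and fibroadipogenic markers were thus higher in each F and 2+3d-C library than in each 2d-U and 5d-U library, as was Mybpc1. The summed smooth muscle and pericyte markers were higher in 5d-U replicates 2 and 6 than in 2+3d-C, although 7 of the 8 genes had a positive log2 fold change in 2+3d-C against 5d-U (median 2.02), with 3 called higher and none lower. Their part in the levels of Des, Tpm1 and Tpm2, which smooth muscle also makes, was not tested.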

How the data were processed

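The authors deposited raw read counts per gene and library, 12 libraries in 4 groups of 3. Per the study's methods, RNA was amplified with SMART-seq v4 and read as single 75-base ends, the nf-core/rnaseq workflow aligned reads to mm10, and featureCounts 1.6.4 (version per the file headers) counted them without strand over GENCODE vM23 exons. Reads that match several places or genes are not counted by its default, and antisense reads cannot be told apart.

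Genes were tested with edgeR 4.0.16 (R 4.3.3): filterByExpr, TMM, 1 quasi-likelihood fit of all 12 libraries on group, two-sided, Benjamini-Hochberg adjustment over 22635 genes. DESeq2 1.42.0, other scalings and filters, 2 corrections for silent-family reads, a replicate block, the compared groups alone, and leaving out libraries were alternatives. RPKM used the exon lengths in the files. Depth was 12540745 to 62424851 reads, so that 3 reads are 0.0481 to 0.239 CPM. In simulated counts for 2+3d-C against 5d-U over 19720 genes, 11% of 100 genes changed by 2 on the log2 scale and 78% of 100 changed by 4 were recovered, with 6 false calls. Values per library are given for genes with a group mean of at least 10 RPKM or called in 2+3d-C against 5d-U or in 5d-U against 2d-U, with some others added. At most 5 genes are named per other list, by smallest p, apart from Chrne and Chrnb1. The members and lists were chosen with earlier results of these data known.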

Additional observations from a re-analysis of the deposited data

How the results depend on the processing

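The results recomputed under the alternatives were the counts of members called, the class sums and 108 fold changes of called members, which gave 1780 values of the same direction and side of the threshold, 524 that lost the call and 23 of the other sign. Under DESeq2 all 108 kept direction and call. Of all genes, DESeq2 called 14.1% higher and 17.8% lower in 2+3d-C against 5d-U. For 2+3d-C it called 20.4% and 12.3% against 2d-U, and 3.67% and 14.6% against F. For 5d-U it called 10.7% and 1.74% against 2d-U, and 12.3% and 16.8% against F. In 2d-U against F these shares were 11% and 34.9%. In 2+3d-C against 5d-U the number higher became 5 (DESeq2), 7 (no filter on low counts), 5 (silent-family reads subtracted), 1 (compared groups alone) and 0 (replicate block, or without the 4 libraries with silent-family reads), and the number lower 8 (a term for those libraries) and 9 (without them). Leaving out 1 library gave 0 to 5 higher and 11 to 21 lower. In 2+3d-C against 2d-U the number lower became 4 (DESeq2), 5 (no filter) and 8 (block), and the number higher 2 (block), 7 (groups alone) and 10 (without the 4 libraries), with 9 to 17 higher and 2 to 3 lower without 1 library. In 2+3d-C against F the number lower became 22 (DESeq2), 27 (no filter), 3 (a mean of at least 5 CPM), 2 (subtraction), 28 (block), 3 (groups alone) and 0 (term, or without the 4 libraries), the number higher 0 without TMM, with the term, the block, the groups alone or without the 4 libraries, and 0 to 1 higher and 0 to 28 lower were called without 1 library. In 5d-U against 2d-U the number higher became 29 (DESeq2), 2 (no TMM), 32 (no filter), 8 (5 CPM), 1 (subtraction), 0 (term) and 1 (without the 4 libraries), and 1 to 25 without 1 library. In 5d-U against F the number lower became 10 (DESeq2), 3 (term) and 0 (block, or without the 4 libraries), the number higher 8 (no filter) and 0 (without the 4 libraries), and 1 to 7 higher and 3 to 7 lower were called without 1 library. In 2d-U against F the number higher became 2 (no filter) and 0 (term), the number lower 23 (5 CPM), 15 (term), 15 (block), 24 (groups alone) and 1 (without the 4 libraries), with 0 to 2 higher and 25 to 40 lower without 1 library. Without TMM the mean sums of the adult fast, embryonic and slow classes in 2d-U were 36.8, 12.9 and 109.0 RPKM, and no other class mean left its replicate spread. Counts over all genes moved as well. Without the filter, 2240 of 49901 genes were lower in 2+3d-C against F and 1867 higher in 5d-U against 2d-U. With the block, 1690 of 22635 were lower in 2+3d-C against F and 1090 higher in 2+3d-C against 2d-U. With the term, 36 of 22635 were higher in 5d-U against 2d-U and 3873 lower in 2d-U against F. Some alternatives test fewer genes or leave 1 library in F and 5d-U, assumed to vary like the rest, and otherwise the cause was not tested.

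Replicate numbers shared between groups are not stated to pair libraries. Per the study, the cells of a sorted batch were assigned to conditions at random, so libraries of different groups may share a batch. Same-numbered libraries did not deviate together (correlations of their deviations over genes -0.424 to 0.0322 for 6 such pairs). With 3 libraries a group, this cannot tell whether libraries were paired. With the numbers as a block, log2 fold changes took the other sign for Myoz2 (-2.43), Myh1 (-2.96) and Myoz1 (-3.10) in 2+3d-C against 2d-U, for Myoz1 (1.21) and Myot (1.33) in 5d-U against F, and in 2d-U against F for Tnni1 (1.05), Neb (0.68), Ttn (2.11), Tmod4 (0.0477), Tnnt3 (0.13), Myh2 (0.54), Myh8 (0.0558), Tnnc1 (0.80) and Myoz3 (0.66). Without the 4 libraries with silent-family reads this held for Tnnt2 (0.23) and Myh8 (1.78) in 2+3d-C against F, Ckm (1.07) in 5d-U against F, and Tnni1 (0.82), Neb (0.57), Ttn (1.69), Mylpf (0.74), Tnnt3 (0.93) and Tnnc1 (1.71) in 2d-U against F.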
